A study of Homo sapiens with 4 samples.

Results

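The genes described here encode ion channels and neurotransmitter receptors: the pore and auxiliary subunits of voltage-gated sodium, calcium and potassium channels, the inward rectifier, two-pore, calcium-activated and HCN channels, and the nicotinic, GABA-A, glycine and glutamate receptors. They were chosen by gene symbol among protein-coding genes, and 193 genes matched. Of these, 115 had 10 or more read counts in at least 1 of the 4 libraries and are the members described here, out of 40188 genes with a value in the files. KCNJ5-AS1 also matched by its first letters but is named as an antisense RNA and was left out.

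The libraries were polyA-selected, stranded RNA-seq of HEK293 cells, a human embryonic kidney line, each from a stable line with a transgene that doxycycline switches on. All lines, the empty-vector line included, received doxycycline at 1 µg/mL for 24 h, and the groups expressed MSI1 (an RNA-binding protein), SRRM3, SRRM4 (related splicing proteins of neurons) or the empty vector. There was 1 library per group, with total counts of 63003121 for MSI1, 62892722 for SRRM3, 60288244 for SRRM4 and 62083851 for the empty vector. The sources used here do not say whether a line was 1 clone. MSI1, SRRM3 and SRRM4 were each highest in the library labelled for them, at 62.43, 38.53 and 63.78 cRPKM, against 8.38, 0.49 and 0.39 cRPKM in the empty vector. The SRRM3 gene also had 298 counts in the SRRM4 library, against 109 in the empty vector and 138 in MSI1. The SRRM4 gene had 95 counts in the SRRM3 library and 6 in MSI1, against 201 in the empty vector. A cRPKM is the authors' read count scaled for gene length and for the size of the library. Of the 9 genes of kidney development and epithelium fixed as markers, KRT8 lay between 288.97 and 335.36 cRPKM and EPCAM between 59.26 and 80.08 cRPKM over the 4 libraries, while PAX8 had 2 to 6 counts.

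With 1 library per group there is no test of a condition, and a difference between lines cannot be told apart from an effect of the transgene. A gene was called higher or lower in a comparison when the ratio of its counts, scaled by library totals, was at least 2 or at most 0.5 and the exact 95% interval of that ratio excluded 1. The interval, given in brackets after each ratio, covers counting error only and compares libraries. The same rule was run over the 14299 protein-coding genes with the same minimum count, the induced gene left out (14298 where both libraries carry a transgene), to give the share of all genes it calls. In bulk RNA, more cells with a transcript and more transcript per cell cannot be told apart.

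Voltage-gated channels open when the membrane potential shifts: sodium and calcium channels pass inward current, potassium channels end the action potential and set firing. Two-pore and inward rectifier potassium channels hold the resting potential. Nicotinic, GABA-A, glycine and ionotropic glutamate receptors are pores opened by a transmitter, while metabotropic glutamate receptors act through G proteins. Many of these genes are silenced outside neurons by REST, a repressor that binds a bipartite DNA element in several of them.

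**Figure D1:**
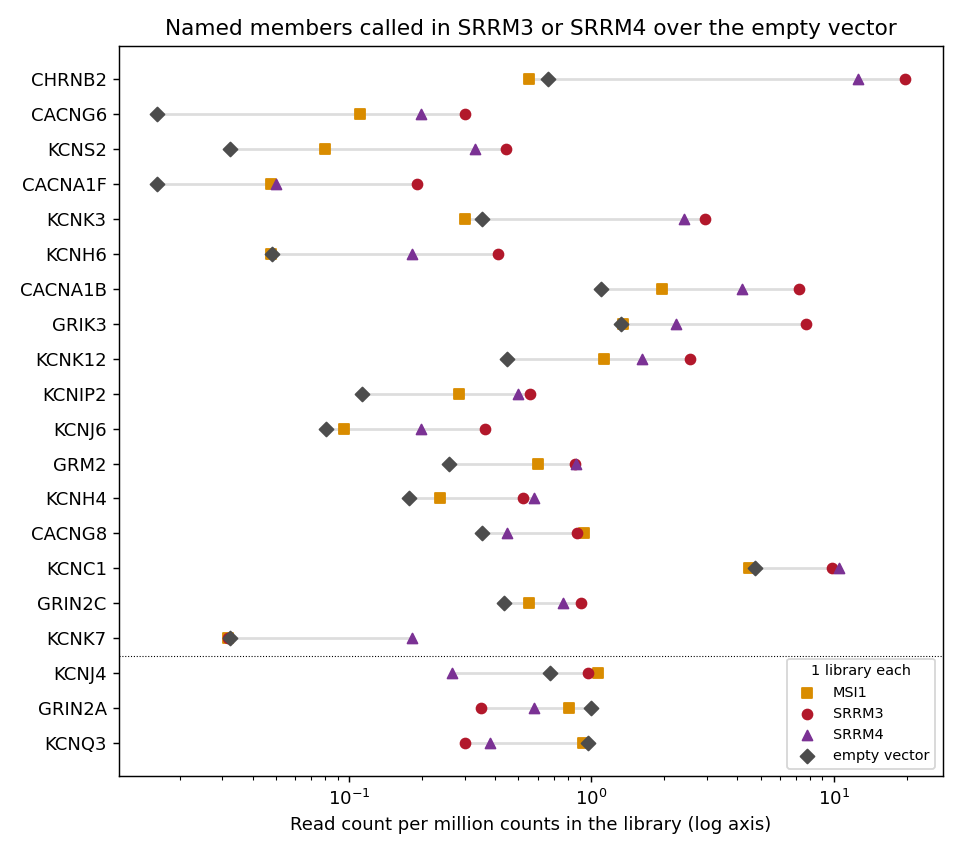
CPM, the read count scaled to the library total, in each library (log axis) for the members named in the text that were called in SRRM3 or SRRM4 over the empty vector; a square is MSI1, a circle SRRM3, a triangle SRRM4 and a diamond the empty vector, with 1 library each. Members above the dotted line were called higher and those below it lower; for CHRNB2 the circle (1241 counts) and the triangle (760) stand far to the right of the square (35) and the diamond (41).

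The promoters of 4 members called higher in SRRM3 are shown because REST is the repressor most often tied to such genes. Each is the RefSeq window from 250 bases before to 50 after a gene start on GRCh38.p14, all on the plus strand, 5′ to 3′. Capitals mark the left and right parts of the REST element, CAGCACC and GGACAG, on either strand. CHRNB2 (chr1:154567528-154567827) leads the group, KCNK3 (chr2:26692472-26692771) is the two-pore channel with the largest ratio, and GRM2 (chr3:51706818-51707117) and KCNH6 (chr17:63523108-63523407) were chosen after the search because they hold both parts in order.
CHRNB2: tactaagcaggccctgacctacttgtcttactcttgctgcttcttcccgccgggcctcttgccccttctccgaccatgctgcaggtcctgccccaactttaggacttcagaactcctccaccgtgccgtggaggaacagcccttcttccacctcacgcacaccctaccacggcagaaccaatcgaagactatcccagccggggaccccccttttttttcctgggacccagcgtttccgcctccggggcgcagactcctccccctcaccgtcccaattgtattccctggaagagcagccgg
KCNK3: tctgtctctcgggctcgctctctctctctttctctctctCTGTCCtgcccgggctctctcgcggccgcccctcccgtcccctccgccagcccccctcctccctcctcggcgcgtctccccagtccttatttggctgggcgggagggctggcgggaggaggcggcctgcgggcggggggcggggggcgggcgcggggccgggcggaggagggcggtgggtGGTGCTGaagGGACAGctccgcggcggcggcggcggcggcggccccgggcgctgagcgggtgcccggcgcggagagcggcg
GRM2: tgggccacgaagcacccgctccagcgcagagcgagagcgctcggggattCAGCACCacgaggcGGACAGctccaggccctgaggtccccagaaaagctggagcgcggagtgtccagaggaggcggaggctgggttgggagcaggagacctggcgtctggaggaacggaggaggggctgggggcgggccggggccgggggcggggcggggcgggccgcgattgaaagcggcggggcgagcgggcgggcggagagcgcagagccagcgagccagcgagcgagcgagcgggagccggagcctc
KCNH6: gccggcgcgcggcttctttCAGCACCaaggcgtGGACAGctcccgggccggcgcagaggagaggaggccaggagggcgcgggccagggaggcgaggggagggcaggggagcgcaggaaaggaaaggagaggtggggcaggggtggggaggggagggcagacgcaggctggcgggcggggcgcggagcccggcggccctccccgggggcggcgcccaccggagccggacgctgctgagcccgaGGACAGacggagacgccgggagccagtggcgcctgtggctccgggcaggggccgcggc

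In GRM2 and in KCNH6 the left part is followed after 7 bases by the right one, a wider gap than the 2 bases of the classical element. In KCNK3 the parts lie near each other but on opposite strands, and neither part is in the CHRNB2 window. RefSeq windows were found for 81 of the 115 members (122 windows) and for 13 of the 18 members called higher in SRRM3 or SRRM4 (15 windows). The parts with a gap of 2 bases were in 0 of the 122 member windows and in 16 of 21074 windows of protein-coding genes (0.0759%). With a gap of 7 to 10 bases, a width taken up after the windows had been seen, they were in 2 of the 122 member windows and again in 0.0759% of all windows. CAGCACC alone was in 13 member windows (10.7%) and 7.84% of all windows, and GGACAG alone in 33 member windows (27.0%) and 21.0% of all windows. These are matches of letters in short windows and not binding sites. The classical form was found in GRIA2, an AMPA receptor subunit that matched by symbol but stayed under the minimum, on the minus strand of this 27-base stretch (chr4:157220386-157220412), which reads in the gene's direction:
GRIA2: gaggcgCTGTCCtcGGTGCTGaaaggc
GRIA2 had 2 counts in SRRM3, 1 in SRRM4, 0 in MSI1 and 0 in the empty vector.

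HEK293 cells carried low levels of most of these genes. The median over members of the mean cRPKM was 0.473, 77 of the 115 were under 1 cRPKM and 8 reached 5 cRPKM. KCNK1 (TWIK-1, a leak potassium channel) was the highest at a mean of 16.05 cRPKM, followed by CHRNA5 (an accessory nicotinic subunit) at 14.3. A further 62 matching genes had between 1 and 9 counts at most and 16 had 0 counts in every library. CHRNA9 and KCNN4 were just inside the minimum, with a highest count of 10, and GRIN2B, KCNIP1, KCNMB1 and SCN2B just outside it, with 9. Since 1 library suffices to pass, a gene seen in 1 library only had to differ; 98 members had at least 10 counts in all 4.

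**Figure D2:**
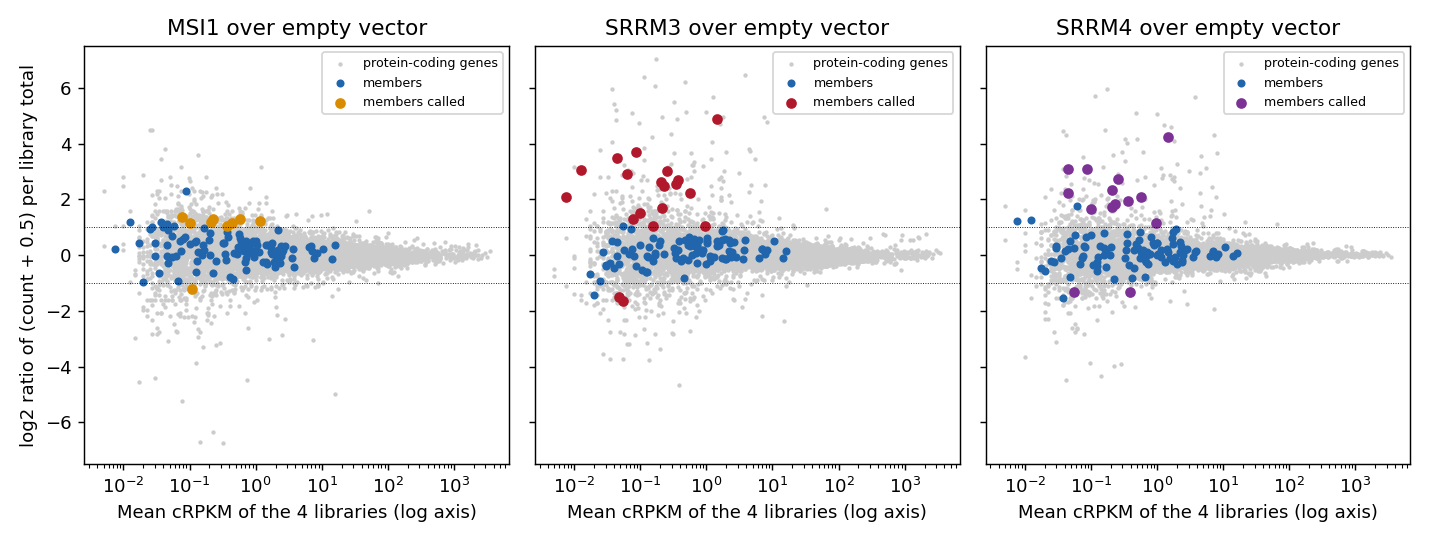
Log2 ratio of (count + 0.5) per library total (vertical) against the mean cRPKM of the 4 libraries (log axis; means under 0.005 are drawn there), for each induced library over the empty vector; grey points are protein-coding genes, blue points members and larger points members that were called. Called members other than CHRNB2 and CACNG4 lie under 1 cRPKM, and more of them lie above the upper dotted 2-fold line in SRRM3 (17) and SRRM4 (12) than in MSI1 (8).

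In SRRM3 over the empty vector, 17 members (14.8%) were called higher, against 1.89% of protein-coding genes, and 2 (1.74%) were called lower, against 0.937%. Low genes are called more often, so the shares were also split at a mean of 1 cRPKM: 16 of 77 members under it were called higher (20.8%), against 7.45% of the protein-coding genes under it, and 2 lower, against 4.26%. At 1 cRPKM or more, 1 of 38 members was called higher, against 0.595%, and 0 lower, against 0.164%. This member was CHRNB2, at 3.40 cRPKM in SRRM3, 2.17 in SRRM4, 0.10 in MSI1 and 0.11 in the empty vector. Its mean thus reaches 1 cRPKM only through the SRRM libraries. Without any fold, the interval lay above 1 in 48 members, against 28.6% of protein-coding genes, and below 1 in 8, against 25.9%. Such an interval excludes 1 less often for low genes. Under 1 cRPKM it lay above 1 in 35.1% of members, against 18.2%, and below 1 in 6.49%, against 7.78%. At 1 cRPKM or more it lay above 1 in 55.3%, against 31.0%, and below 1 in 7.89%, against 30.1%. The median log2 ratio over members was 0.20, and 0.0078 over protein-coding genes. In SRRM4 over the empty vector, 12 members (10.4%) were called higher, against 1.1% of protein-coding genes, and 2 lower, against 0.511%. Under 1 cRPKM the share called higher was 14.3% of members (11 of 77) and 4.04% of protein-coding genes, and 2 were lower, against 2.56%. At 1 cRPKM or more, 1 of 38 members, again CHRNB2, was higher, against 0.422%, and 0 lower, against 0.0345%. Without any fold, the interval lay above 1 in 33 members, against 21.5%, and below 1 in 12, against 23.5%. Under 1 cRPKM it lay above 1 in 23.4% of members, against 8.37%, and below 1 in 10.4%, against 9.37%. At 1 cRPKM or more it lay above 1 in 39.5%, against 24.5%, and below 1 in 10.5%, against 26.8%. The median log2 ratio was 0.12 over members and -0.0063 over protein-coding genes. Both comparisons use the same empty-vector library. The MSI1 library was therefore also used as the control: 13 of the 17 genes called in SRRM3, and 8 of the 12 called in SRRM4, were also called higher over MSI1. Over MSI1 the rule called 13 members higher and 8 lower in SRRM3, against 2.07% and 1.62% of protein-coding genes. In SRRM4 over MSI1 it called 9 higher and 9 lower, against 1.31% and 1.8%. Under 1 cRPKM, 12 of 77 members (15.6%) were higher and 7 (9.09%) lower in SRRM3 over MSI1, against 7.93% and 6.89% of protein-coding genes. In SRRM4 over MSI1, 8 (10.4%) were higher and 8 (10.4%) lower there, against 5.15% and 8.15%. The lower calls over MSI1 alone in SRRM3 included GABRA5, KCNA1, KCNA7 and KCNJ10, with ratios of 0.448 (0.237 to 0.813), 0.471 (0.315 to 0.694), 0.25 (0.0454 to 0.928) and 0.348 (0.135 to 0.807). Those in SRRM4 included KCNA2 and SCN3A, with ratios of 0.369 (0.174 to 0.730) and 0.409 (0.167 to 0.917), and KCNN4, with 1 count against 10. KCNN4 passed the minimum count in MSI1 alone. All 7 had more counts in MSI1 than in the empty vector.

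The nicotinic receptor subunit CHRNB2 (ENSG00000160716; GRCh38 chromosome 1, 154567781 to 154580026) differed most. CHRNB2 encodes the beta2 subunit, which in brain assembles mostly with alpha4. It was at 3.40 cRPKM in SRRM3 and 2.17 in SRRM4, against 0.10 in MSI1 and 0.11 in the empty vector, from 1241, 760, 35 and 41 counts. The ratio over the empty vector was 29.9 (21.9 to 41.8) in SRRM3 and 19.1 (13.9 to 26.8) in SRRM4, and over MSI1 it was 35.5 (25.4 to 51.2) and 22.7 (16.2 to 32.8). CHRNA4, the usual partner, had 2 counts in SRRM3, 0 in SRRM4, 3 in MSI1 and 1 in the empty vector, so no change in it was detectable at this depth.

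None of the other 7 nicotinic members was called in SRRM3 or SRRM4 over the empty vector. The rule called 1.89% of protein-coding genes higher and 0.937% lower in SRRM3, and 1.1% and 0.511% in SRRM4. CHRNA5 was at 13.86 cRPKM in SRRM3, 14.84 in SRRM4, 13.55 in MSI1 and 15.02 in the empty vector. The muscle-type subunit CHRNB1 lay between 5.74 and 7.43 cRPKM. CHRNA7, which forms homomeric channels, lay between 2.02 and 2.31 cRPKM, but it shares sequence with the fusion gene CHRFAM7A (148 to 215 counts), so how the reads were shared out is uncertain. The ganglionic pair CHRNA3 and CHRNB4 was called higher in MSI1 alone. CHRNA3 had 148 counts in MSI1 against 65 in the empty vector, for a ratio of 2.24 (1.67 to 3.05), with 61 in SRRM3 and 71 in SRRM4. CHRNB4 had 99 counts in MSI1 against 47, a ratio of 2.08 (1.45 to 3.0), with 54 in SRRM3 and 36 in SRRM4. Exons of CHRNA3 overlap exons of CHRNA5 on the other strand (2890 to 3157 counts), and the sources used here do not say if the counting used strand, so CHRNA3 is uncertain.

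Among voltage-gated potassium channel pore genes, 5 of 26 were called higher and 1 lower in SRRM3, and 4 higher and 1 lower in SRRM4. Among protein-coding genes under 1 cRPKM, where the called genes of this family lie, 7.45% were called higher in SRRM3 and 4.04% in SRRM4. The shares called lower there were 4.26% in SRRM3 and 2.56% in SRRM4. Over all protein-coding genes 1.89% were called higher and 0.937% lower in SRRM3, and 1.1% and 0.511% in SRRM4. KCNS2 (Kv9.2), a silent subunit that modifies other Kv channels, had 28 counts in SRRM3 and 20 in SRRM4, against 5 in MSI1 and 2 in the empty vector. The ratio of KCNS2 over the empty vector was 13.8 (3.48 to 120) in SRRM3 and 10.3 (2.5 to 90.9) in SRRM4. KCNS3, another silent subunit and the most abundant gene of this family, lay between 6.09 and 7.66 cRPKM and KCNG1, a further silent subunit, between 2.08 and 2.94 cRPKM; neither was called.

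KCNC1 (Kv3.1, a channel of fast-spiking neurons; ENSG00000129159, chromosome 11, 17734774 to 17856804) was at 1.27 cRPKM in SRRM3 and 1.36 in SRRM4, against 0.58 in MSI1 and 0.61 in the empty vector. Its ratios of 2.08 (1.81 to 2.40) and 2.22 (1.93 to 2.56) over the empty vector have the narrowest intervals of the potassium channel calls, from 282 to 635 counts per library. KCNH4, of the ether-a-go-go group, had 33 counts in SRRM3 and 35 in SRRM4, against 15 in MSI1 and 11 in the empty vector, with ratios of 2.96 (1.46 to 6.50) and 3.28 (1.63 to 7.15) over the empty vector. KCNH6 (Erg2) had 26 counts in SRRM3, 11 in SRRM4, 3 in MSI1 and 3 in the empty vector. Its ratio was 8.56 (2.62 to 44.2) in SRRM3; in SRRM4, with 11 counts, it was not called over the empty vector. KCNQ3, a subunit of the M-current channel, went the other way, with 19 counts in SRRM3 and 23 in SRRM4 against 58 in MSI1 and 60 in the empty vector. Its ratio over the empty vector was 0.313 (0.176 to 0.531) in SRRM3 and 0.395 (0.233 to 0.648) in SRRM4.

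Of 11 two-pore channels, 2 were called higher in SRRM3, 3 in SRRM4 and 2 in MSI1, all under 1 cRPKM, where 7.45%, 4.04% and 7.11% of protein-coding genes were called higher. KCNK3 (TASK-1, an acid-sensitive leak channel; ENSG00000171303, chromosome 2, 26692690 to 26733420) was at 0.50 cRPKM in SRRM3 and 0.41 in SRRM4, against 0.05 in MSI1 and 0.06 in the empty vector. Its counts were 186, 145, 19 and 22, and its ratio over the empty vector was 8.35 (5.35 to 13.6) in SRRM3 and 6.79 (4.32 to 11.2) in SRRM4. KCNK9 (TASK-3), its closest relative, had 17 counts in SRRM3, 21 in SRRM4, 30 in MSI1 and 13 in the empty vector, and was called higher in MSI1, with a ratio of 2.27 (1.15 to 4.75). KCNK12 (THIK-2) had 161 counts in SRRM3, 98 in SRRM4, 71 in MSI1 and 28 in the empty vector, so that all 3 induced libraries were called higher. KCNK12 was not called in SRRM4 over MSI1. KCNK7 had 11 counts in SRRM4 and 2 in each other library, with a ratio over the empty vector of 5.66 (1.24 to 52.6). KCNK7 is a member only through the SRRM4 library, where it is high, so its call carries little weight. KCNK1 itself was at 15.85 cRPKM in SRRM3, 15.35 in SRRM4, 18.61 in MSI1 and 14.39 in the empty vector and was not called, nor was KCNK5 (TASK-2), at 2.39 to 2.58 cRPKM.

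Of the 10 matching calcium channel pore genes, 7 were members. CACNA1B (Cav2.2, the N-type channel of presynaptic terminals; ENSG00000148408, chromosome 9, 137877789 to 138124624) was at 0.74 cRPKM in SRRM3 and 0.43 in SRRM4, against 0.20 in MSI1 and 0.11 in the empty vector. The counts were 451, 252, 123 and 68, and the ratio over the empty vector was 6.55 (5.06 to 8.58) in SRRM3 and 3.82 (2.91 to 5.07) in SRRM4. The MSI1 library stood between the SRRM libraries and the empty vector. CACNA1A, the P/Q-type channel that also serves presynaptic terminals, had 0 to 2 counts. CACNA1H, a T-type channel and the most abundant pore gene, lay between 1.22 and 1.56 cRPKM, and CACNA1G, another T-type channel, between 0.43 and 0.73 cRPKM. CACNA1F, the L-type channel of photoreceptors, had 12 counts in SRRM3, 3 in SRRM4, 3 in MSI1 and 1 in the empty vector, and its ratio of 11.8 in SRRM3 has an interval of 1.75 to 506. CACNA1F is a member only through the SRRM3 library, where it is high, so its call carries little weight. The auxiliary alpha2delta and beta subunits, which bring calcium channel pores to the membrane, had 0 of 7 members called in any of the 3 libraries over the empty vector. All 3 alpha2delta and 3 of the 4 beta members were at 1 cRPKM or more. At that level 0.595%, 0.422% and 0.302% of protein-coding genes were called higher in SRRM3, SRRM4 and MSI1. CACNA2D1 lay between 7.31 and 8.10 cRPKM, CACNA2D2 between 2.25 and 3.10 cRPKM and CACNB3 between 6.44 and 7.53 cRPKM. CACNB1 was at 2.13 cRPKM in SRRM3 and 2.77 in SRRM4, against 1.43 in MSI1 and 1.43 in the empty vector.

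The gamma subunits include the TARPs, which carry AMPA receptors to synapses. CACNG4, a TARP, was at 2.01 cRPKM in MSI1, against 0.87 in the empty vector, for a ratio of 2.31 (1.94 to 2.77), with 0.74 in SRRM3 and 0.99 in SRRM4. CACNG8, also a TARP, had 55 counts in SRRM3, 27 in SRRM4, 59 in MSI1 and 22 in the empty vector, and was called higher in SRRM3 and MSI1. CACNG6, a calcium channel gamma subunit, had 19 counts in SRRM3, 12 in SRRM4, 7 in MSI1 and 1 in the empty vector, with a ratio over the empty vector of 18.8 (2.98 to 779) in SRRM3. GRIA3 was the AMPA receptor subunit with enough reads to be a member, at 45 to 88 counts.

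Of 12 glutamate receptor members, 3 were called higher and 1 lower in SRRM3, and 1 higher and 0 lower in each of SRRM4 and MSI1. Over protein-coding genes 1.89%, 1.1% and 1.59% were called higher in SRRM3, SRRM4 and MSI1. Under 1 cRPKM, where the called receptor genes lie, these shares were 7.45%, 4.04% and 7.11%, and 4.26% were called lower in SRRM3. GRIK3, a kainate receptor subunit, was at 0.85 cRPKM in SRRM3, 0.25 in SRRM4, 0.15 in MSI1 and 0.15 in the empty vector. Its 483 counts in SRRM3 stand far above 135, 85 and 82 in SRRM4, MSI1 and the empty vector, with a ratio of 5.81 (4.59 to 7.44) over the empty vector. GRIK5, another kainate receptor subunit, lay between 0.42 and 0.71 cRPKM. GRM2, a presynaptic metabotropic receptor, had 54 counts in SRRM3, 52 in SRRM4 and 38 in MSI1, against 16 in the empty vector. All 3 induced libraries were called higher for GRM2, with ratios of 3.33 (1.88 to 6.24), 3.35 (1.88 to 6.28) and 2.34 (1.27 to 4.50), and neither SRRM library was called over MSI1. GRM8, the most abundant metabotropic receptor gene, lay between 1.20 and 1.43 cRPKM.

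For NMDA receptors, GRIN2C had 57 counts in SRRM3, 46 in SRRM4, 35 in MSI1 and 27 in the empty vector, and its ratio of 2.08 (1.30 to 3.43) in SRRM3 passed the rule. GRIN2A had 22 counts in SRRM3, 35 in SRRM4, 51 in MSI1 and 62 in the empty vector, a ratio in SRRM3 of 0.350 (0.205 to 0.578). GRIN2D, another NMDA subunit, had 21 to 32 counts. GRIN1, the obligatory NMDA subunit, had 3 counts in SRRM3, 1 in SRRM4, 0 in MSI1 and 1 in the empty vector. Among GABA-A subunits, GABRA4 and GABRA6 had 0 counts in every library, which allows up to 0.0498 CPM (counts scaled to the library total) in the shallowest library. GLRB, the glycine receptor beta subunit, lay between 3.41 and 3.95 cRPKM. GLRA1, an alpha subunit that forms the glycine receptor with it, had 7 counts in SRRM3, 4 in SRRM4 and 0 in MSI1 and in the empty vector, and was under the minimum.

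Sodium channel genes gave no call over the empty vector in any of the 3 libraries, for pore genes (6 members) or beta subunits (3 members). Over protein-coding genes the rule called 1.59% higher and 1.04% lower in MSI1, 1.89% and 0.937% in SRRM3, and 1.1% and 0.511% in SRRM4. SCN9A (Nav1.7, of sensory neurons) lay between 2.12 and 2.52 cRPKM and SCN8A (Nav1.6) between 0.83 and 1.18 cRPKM. SCN2A, a neuronal channel gene known for its REST element, had 60 counts in SRRM3, 58 in SRRM4, 54 in MSI1 and 62 in the empty vector, and its ratio of 0.955 in SRRM3 has an interval of 0.659 to 1.38. SCN3B, a beta subunit, was at 2.23 cRPKM in SRRM3 and 2.15 in SRRM4, against 1.30 in MSI1 and 1.21 in the empty vector. Both SRRM libraries were above both others for SCN3B, with ratios under 2 of 1.84 (1.63 to 2.07) and 1.77 (1.57 to 1.99) over the empty vector. HCN channels, which carry the pacemaker current, also gave no call: HCN2 lay between 7.92 and 9.04 cRPKM and HCN3 between 1.30 and 2.01 cRPKM.

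Potassium channel partners and the remaining potassium channels gave a few single calls. KCNIP2 (KChIP2), a partner of Kv4 channels, had 35 counts in SRRM3, 30 in SRRM4, 18 in MSI1 and 7 in the empty vector, with ratios over the empty vector of 4.94 (2.16 to 13.2), 4.41 (1.90 to 11.9) and 2.53 (1.01 to 7.18). An antisense gene, KCNIP2-AS1, overlaps it and had 13, 11, 9 and 9 counts. KCNJ6 (GIRK2), a G protein-gated inward rectifier, had 23 counts in SRRM3, 12 in SRRM4, 6 in MSI1 and 5 in the empty vector, and was called in SRRM3 with a ratio of 4.54 (1.69 to 15.3). KCNJ4 (Kir2.3), an inward rectifier, had 16 counts in SRRM4 against 61 in SRRM3, 67 in MSI1 and 42 in the empty vector, a ratio over the empty vector of 0.392 (0.206 to 0.713). The calcium-activated channel KCNN3 (SK3) had 51 counts in MSI1 against 117 in the empty vector, for a ratio of 0.430 (0.303 to 0.602), with 82 in SRRM3 and 89 in SRRM4. KCNMB4, a beta subunit of BK channels, lay between 3.39 and 3.72 cRPKM, KCNJ11, a pore of ATP-sensitive channels, between 2.49 and 3.21 cRPKM, and KCNN1 (SK1) between 0.31 and 0.55 cRPKM. KCNJ12 (132 to 188 counts) shares sequence with KCNJ18 (0 to 1 counts), so the split of reads is uncertain.

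**Figure D3:**
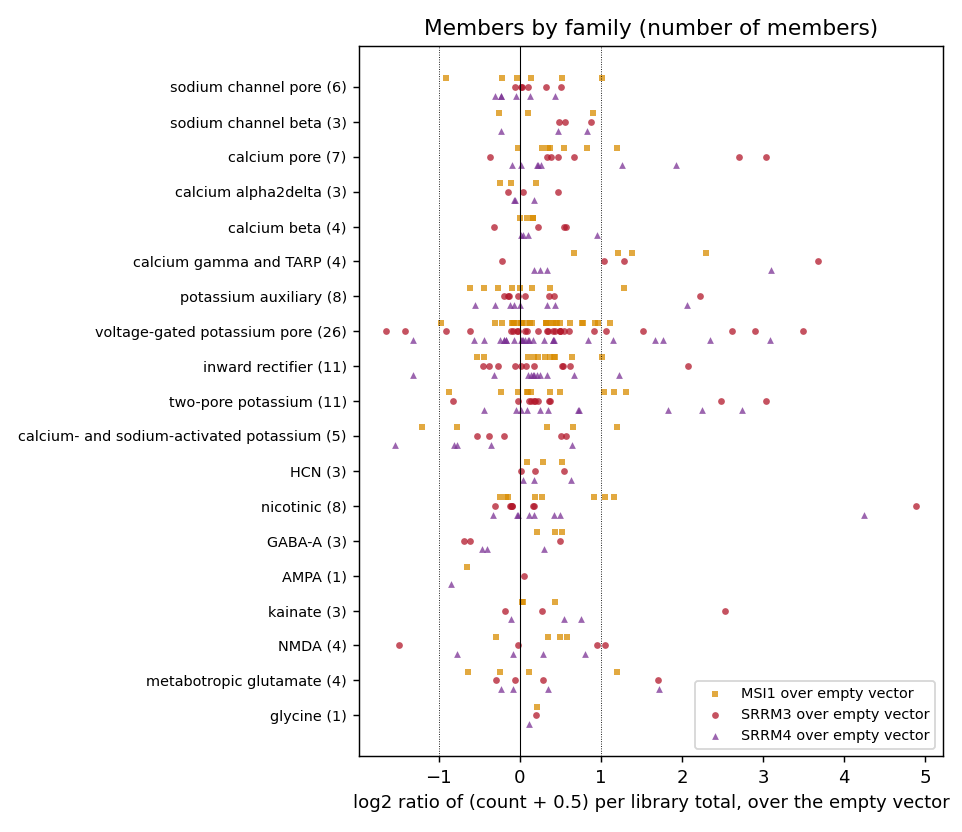
Log2 ratio of (count + 0.5) per library total over the empty vector for every member, by family with the number of members in brackets; squares are MSI1, circles SRRM3 and triangles SRRM4, with dotted lines at 2-fold. Most points lie between the dotted lines, and the points far to the right are single genes, with CHRNB2 at 4.88 in SRRM3 and 4.24 in SRRM4.

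In all 4 pairings of an SRRM library with MSI1 or the empty vector, 7 members met the rule for higher (6.09%), against 0.546% of protein-coding genes, among them CACNA1B, CHRNB2, KCNC1, KCNH4, KCNK3 and KCNS2. KCNQ3 (0.870% of members) met it for lower, against 0.028% of protein-coding genes. CHRNB2 aside, these members lie under 1 cRPKM, as do 77 of the 115 members and 2699 of the 14300 protein-coding genes. Low genes are called more often, and the shares for this rule were not split by level. Without any fold, both SRRM libraries exceeded both others in 29 of 115 members (25.2%), against 15.4% of protein-coding genes, and were below both in 10 (8.70%), against 19.2%. Of 10 markers of neurons, read without the minimum count, 3 were called higher in SRRM3, 4 in SRRM4 and 1 in MSI1. The minimum was reached by 7 of them, and not by ELAVL3, ELAVL4 or DCX. Over protein-coding genes with the minimum count 1.89%, 1.1% and 1.59% were called higher, and under 1 cRPKM 7.45%, 4.04% and 7.11%. Calls of ELAVL3 and ELAVL4 have no such share beside them. The summed level of the markers was 35.6 cRPKM in SRRM3, 29.8 in SRRM4, 27.5 in MSI1 and 17.5 in the empty vector. SYP, SNAP25 and STMN2 were called higher in both SRRM libraries, and MAP2, GAP43, RBFOX3 and TUBB3 were called in neither. ELAVL3 was called higher in SRRM4 and MSI1, with 8 and 9 counts against 1 in the empty vector and 6 in SRRM3. ELAVL4 was called lower in SRRM4, with 0 counts against 7 in the empty vector, 6 in MSI1 and 4 in SRRM3. DCX had 0 counts in every library. TUBB3 had the highest level of these markers (16.85, 15.14, 21.20 and 12.01 cRPKM in SRRM3, SRRM4, MSI1 and the empty vector). Their part in the result was not tested. REST itself was at 7.13 cRPKM in SRRM3, 6.50 in SRRM4, 7.74 in MSI1 and 7.93 in the empty vector.

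Of 16 channel genes with a REST element reported in other work, 12 were members. CHRNB2 and GRIN2C were called higher and GRIN2A and KCNQ3 lower in SRRM3, while CHRNB2 was called higher and KCNQ3 lower in SRRM4. The 8 others were not called over the empty vector in these libraries, among them SCN2A, HCN2, HCN4, KCNMA1, KCNN4, KCND3 and CACNA1H. Of protein-coding genes, 1.89% were called higher and 0.937% lower in SRRM3, and 1.1% and 0.511% in SRRM4. Under 1 cRPKM, where the genes called other than CHRNB2 lie, these shares were 7.45% and 4.26%, and 4.04% and 2.56%. The median log2 ratio of the 12 was 0.42 in SRRM3, 0.11 in SRRM4 and 0.21 in MSI1, and 0 of them were called in MSI1. Over all members the medians were 0.20, 0.12 and 0.21, and over protein-coding genes 0.0078, -0.0063 and 0.024.

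In MSI1 over the empty vector, 8 members (6.96%) were called higher, against 1.59% of protein-coding genes, and 1 (0.870%) was called lower, against 1.04%. Under 1 cRPKM the share called higher was 9.09% of members (7 of 77) and 7.11% of protein-coding genes. At 1 cRPKM or more, 1 of 38 members was called higher, against 0.302%, and 0 lower, against 0.276%. This member was CACNG4, at 2.01 cRPKM in MSI1 and 0.74 to 0.99 cRPKM in the other libraries. Its mean thus reaches 1 cRPKM only through the MSI1 library. Lower calls under 1 cRPKM were 1 of 77 members and 4.33%. The 8 were CACNG4, CACNG8, CHRNA3, CHRNB4, GRM2, KCNIP2, KCNK9 and KCNK12, and the 1 lower gene was KCNN3. The largest ratio was 2.64 (1.60 to 4.53), for CACNG8. The median log2 ratio was 0.21 over members and 0.024 over protein-coding genes. Without any fold, the interval lay above 1 in 39 members, against 31% of protein-coding genes, and below 1 in 15, against 25.6%. Under 1 cRPKM it lay above 1 in 28.6% of members, against 20.3%, and below 1 in 7.79%, against 9.45%. At 1 cRPKM or more it lay above 1 in 44.7%, against 33.5%, and below 1 in 23.7%, against 29.4%.

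SRRM4 over SRRM3 compares the related proteins without the empty vector. In it 5 members (4.35%) were called lower, against 1.29% of protein-coding genes, and 1 (0.870%) higher, against 0.811%. All 6 were under 1 cRPKM, where the protein-coding shares were 5.82% and 3.59%; at or above it 0 of 38 members were called, against 0.241% and 0.164%. Without any fold, the interval lay above 1 in 10 members, against 24.6%, and below 1 in 29, against 29.5%. Under 1 cRPKM it lay above 1 in 6.49% of members, against 6.97%, and below 1 in 22.1%, against 18.5%. At 1 cRPKM or more it lay above 1 in 13.2%, against 28.8%, and below 1 in 31.6%, against 32.1%. GRIK3 had a ratio of 0.292 (0.239 to 0.354). KCNMA1, the BK channel opened by voltage and calcium, was at 0.35 cRPKM in SRRM4, against 0.90 in SRRM3, with 0.76 in MSI1 and 0.61 in the empty vector. Its ratio of SRRM4 over SRRM3 was 0.395 (0.321 to 0.484), with the SRRM4 library below the 3 others. KCNJ4, KCNH6 and CACNA1F had ratios of 0.274 (0.147 to 0.481), 0.441 (0.197 to 0.924) and 0.261 (0.0472 to 0.966), and KCNK7 was higher at 5.74 (1.25 to 53.3). CACNA1F passed the minimum count in SRRM3 alone and KCNK7 in SRRM4 alone. CHRNB2 was not called, at a ratio of 0.639 (0.583 to 0.700).

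**Figure D4:**
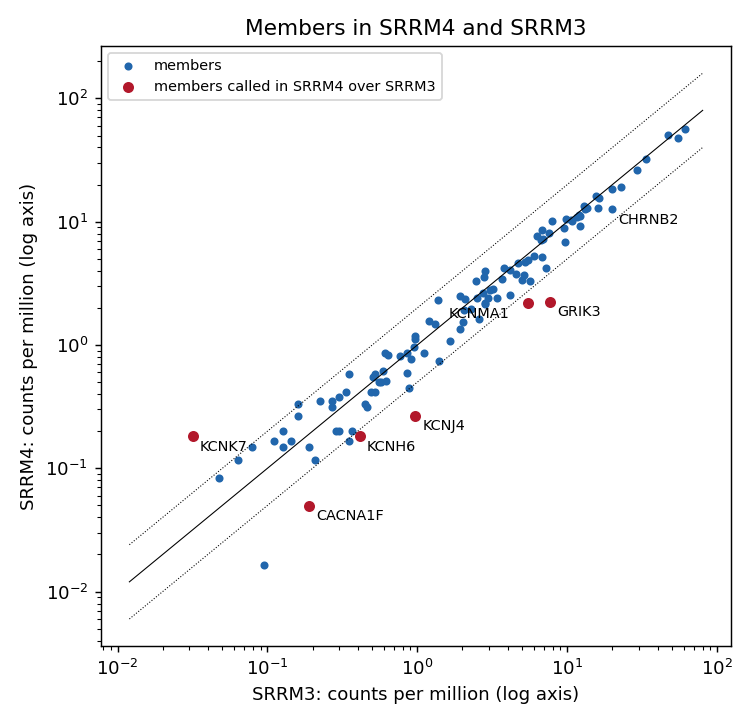
CPM of each member in SRRM4 (vertical) against SRRM3 (horizontal), both on log axes; the solid line is equality, dotted lines are 2-fold and red points are the 6 members called. Most members lie between the dotted lines, and GRIK3 and KCNMA1 are the most abundant genes below them.

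Genes that assemble, anchor or regulate these channels were read from a separate list of 47, of which 37 had at least 10 counts. In SRRM3 3 were called higher and 0 lower, in SRRM4 3 and 0, and in MSI1 2 and 0, over the empty vector, where 1.89%, 1.1% and 1.59% of protein-coding genes were called higher. The genes called lie under 1 cRPKM, where these shares were 7.45%, 4.04% and 7.11%. UNC79, an auxiliary protein of the sodium leak channel NALCN, had 384 counts in SRRM3 and 235 in SRRM4, against 18 in MSI1 and 18 in the empty vector, with ratios over the empty vector of 21.1 (13.1 to 35.9) and 13.4 (8.32 to 23.1). SHANK1, a scaffold of excitatory synapses, had 68, 26, 66 and 10 counts in SRRM3, SRRM4, MSI1 and the empty vector, and GRIP2, an AMPA receptor binding protein, had 92, 63, 70 and 27. Both were called higher in all 3 induced libraries. GABARAP, which binds GABA-A receptors, was the most abundant of the list, at a mean of 123 cRPKM.

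Receptor and channel genes outside the symbol rule made a list of 31, with 20 at 10 or more counts. GABRD, the GABA-A delta subunit, was at 1.95 cRPKM in SRRM3 and 1.60 in SRRM4, against 0.43 in MSI1 and 0.67 in the empty vector, and CHRM4, a muscarinic receptor, had 87 and 69 counts against 27 and 26. GABRD and CHRM4 were called higher in both SRRM libraries. CHRM3, another muscarinic receptor, was at 0.28 cRPKM in SRRM3, 0.58 in SRRM4, 0.29 in MSI1 and 0.72 in the empty vector, and was called lower in SRRM3 and MSI1. GABRP was called lower in SRRM3 and MSI1, and GABRE in SRRM3. In SRRM4 0 of the 20 were called lower. Over protein-coding genes 1.89% were called higher and 0.937% lower in SRRM3, 1.1% and 0.511% in SRRM4, and 1.59% and 1.04% in MSI1. Under 1 cRPKM, where the genes called other than GABRD lie, these shares were 7.45% and 4.26%, 4.04% and 2.56%, and 7.11% and 4.33%.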

How the data were processed

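RNA-seq of 4 HEK293 lines was analysed, with groups taken from the labels. For every gene the files hold a cRPKM, an RPKM-type value made and deposited by the authors, and the whole number of reads, a raw count as deposited. Per the submitters' processing notes the genome was GRCh38 (hg38); the sources used here name no aligner, counter or annotation and do not say if strand was used. Of 41614 genes, 1426 without a value were left out. Symbols were found for 39633, and gene types and coordinates come from GENCODE 29.

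Members, gene lists and rules were chosen with earlier results of these data known. Ratios are counts divided by library totals, with exact conditional (Clopper-Pearson) 95% intervals, which cover counting error only since reads are not independent molecules. Log2 ratios add 0.5 to each count. A count of 3 sets the floor, 0.0476 to 0.0498 CPM. The rule was run on simulated counts that vary by counting error only. They hold no variation between lines or libraries, so this run cannot show how reliable the calls in these data are. Genes named are the members called in any comparison, the 2 most abundant of each family and those with a reported REST element; others, such as absent partner subunits, CHRNA7, KCNJ12 and CACNA1A, were added after their values were seen to describe their family. A few genes that meet this rule are not reported here but are counted. Promoters for printing were also chosen then. Alternatives were TMM factors (edgeR), other folds, intervals, pseudocounts and filters, and MSI1 as control. Tools were edgeR 4.0.16 in R 4.3.3 and, in Python 3.11.15, scipy 1.17.1, pandas 2.3.3, numpy 2.4.6 and matplotlib 3.10.9.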

Additional observations from a re-analysis of the deposited data

Results flagged for a closer look

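Some members lay on opposite sides of the empty vector in a pair of induced libraries, each by more than counting error. With 1 library per group the difference itself was not tested. KCNMA1 had a ratio of 1.48 (1.25 to 1.75) in SRRM3 and 0.584 (0.468 to 0.727) in SRRM4, and 1.26 (1.06 to 1.5) in MSI1. KCNJ4 had a ratio of 1.57 (1.05 to 2.37) in MSI1 and 0.392 (0.206 to 0.713) in SRRM4. KCNJ8, the pore of a vascular ATP-sensitive potassium channel, had a ratio of 0.738 (0.646 to 0.843) in MSI1 and 1.44 (1.29 to 1.62) in SRRM3. KCNAB2, a cytoplasmic beta subunit of Kv1 channels, had a ratio of 0.828 (0.729 to 0.940) in MSI1, 1.34 (1.19 to 1.5) in SRRM3 and 1.26 (1.12 to 1.42) in SRRM4. Exons of KCNAB2 overlap exons of NPHP4 on the other strand (1332 to 1522 counts). Since the use of strand in counting is not known, KCNAB2 is uncertain. KCNB2 (Kv2.2) had a ratio of 0.807 (0.679 to 0.959) in MSI1 and 1.41 (1.21 to 1.64) in SRRM3.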

How the results depend on the processing

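Counts of members are given as higher and lower in MSI1, SRRM3 and SRRM4 over the empty vector and in SRRM4 over SRRM3. The rule gave 8 and 1, 17 and 2, 12 and 2, and 1 and 5. With TMM factors each count stayed within 1.5 times, and KCNIP2 in MSI1 (log2 1.25) lost its call. Counts that moved further follow, with the share of protein-coding genes called in brackets. The 1.5-fold rule gave 15 and 5 in MSI1 (4.28% and 2.3%), 4 lower in SRRM3 (1.6%), 19 and 6 in SRRM4 (1.94% and 1.39%), and 2 and 13 in SRRM4 over SRRM3 (1.56% and 3.94%). The 2-fold rule without an interval gave 15 and 2 in MSI1 (2.09% and 1.59%), 4 lower in SRRM3 (1.66%) and 2 higher in SRRM4 over SRRM3 (1.27%). A 99% interval gave 0 and 3 in SRRM4 over SRRM3 (0.518% and 0.951%). On log2(cRPKM + 0.5) there were 0 and 0 in MSI1 (0.161% and 0.126%), 4 and 0 in SRRM3 (0.476% and 0.0909%), 1 and 0 in SRRM4 (0.308% and 0.028%), and 0 and 0 in SRRM4 over SRRM3 (0.0979% and 0.112%). With a pseudocount of 0.1 there were 1 and 0 in MSI1 (0.601% and 0.545%), 10 and 0 in SRRM3 (1.08% and 0.448%), 0 lower in SRRM4 (0.119%), and 0 and 3 in SRRM4 over SRRM3 (0.343% and 0.532%). With a pseudocount of 2 there were 0 and 0 in MSI1 (0.042% each), 1 and 0 in SRRM3 (0.161% and 0.021%), 0 and 0 in SRRM4 (0.147% and 0.00699%), and 0 and 0 in SRRM4 over SRRM3 (0.035% and 0.049%). A pseudocount shrinks the ratio of low genes by construction. A mean of at least 1 cRPKM left 38 members, with 1 and 0 in MSI1 (0.302% and 0.276%), SRRM3 (0.594% and 0.164%) and SRRM4 (0.422% and 0.0345%) and 0 and 0 in SRRM4 over SRRM3 (0.164% and 0.241%). The 1 was CACNG4 in MSI1 and CHRNB2 in SRRM3 and SRRM4, each reaching that mean only through libraries where it is high. A minimum of 30 counts gave 0 and 3 in SRRM4 over SRRM3 (0.526% and 0.954%). With MSI1 as control the lower calls were 8 in SRRM3 (1.62%) and 9 in SRRM4 (1.8%). A mean count of at least 10, chosen after seeing the data, left 105 members, with 15 higher in SRRM3 (1.77% of protein-coding genes), 10 in SRRM4 (1.03%) and 0 in SRRM4 over SRRM3 (0.668%). Adding KCNJ5-AS1, also chosen then, moved no count. The median log2 ratio was 0.078 in MSI1 and 0.084 in SRRM3 on log2(cRPKM + 0.5), and the mean in its place was 0.44 in SRRM3 and 0.31 in SRRM4. Over the 4 comparisons, 43 of the 48 calls were lost on log2(cRPKM + 0.5) and 0 changed direction. No paired analysis was possible because each group has 1 library. Leaving out a replicate was not possible for the same reason. Depth limits the genes with few reads: 5 of the 18 members called higher in SRRM3 or SRRM4 had 3 or fewer counts in the empty vector.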
